A study of Homo sapiens with 6 samples.

Results

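The 10 genes described here encode receptors linked to the immunoreceptor tyrosine-based activation motif (ITAM) or of a family with such members, the adaptors that carry that motif and the kinase that binds it. They are OSCAR, TREML2, TREM1, TREM2, FCGR1A and FCGR2A (receptors), FCER1G, TYROBP and CD247 (adaptors) and SYK (kinase). They were taken by gene symbol from a table of 26410 rows, and all 10 passed the filter on low counts that left 13014 rows for testing. The set was put together with the values of the comparison below in view, with CD247 higher and OSCAR and TREML2 lower, so the differences of these 10 genes are given as a description and without p-values.

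The cells were Kasumi-1, a human acute myeloid leukaemia line that carries the RUNX1::RUNX1T1 fusion. The groups were 3 libraries of cells given a PHF19 hairpin (shPHF19) and 3 control libraries. Per the protocol, cells of both kinds were transfected and then selected with puromycin at 2 µg/ml. The controls are named as scrambled hairpin in the series title and as WT in the treatment label, and the labels do not say how many PHF19 hairpins were used. PHF19 joins Polycomb repressive complex 2, which methylates histone H3 at lysine 27, as an accessory protein, and the comparison asks which transcripts differ once it is silenced. Nothing in the labels ties the replicates to separate cultures, so errors and p-values reflect variation among these 6 libraries that could be technical.

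An ITAM is a short stretch of a cytoplasmic tail with a pair of tyrosines. When a receptor is engaged, kinases of the SRC family phosphorylate them, and the tandem SH2 domains of SYK, or of ZAP70 in T cells, dock there. Most receptors of this kind have no motif of their own and pair through the membrane with an adaptor: FCER1G (the Fc receptor gamma chain), TYROBP (DAP12) or CD247 (the CD3 zeta chain). In myeloid cells this wiring serves phagocytosis of antibody-coated particles, amplification of inflammatory signals and osteoclast formation.

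Total counts were 14229878 to 16615143 per library. PHF19 itself stood at 41.1, 36.9 and 33.0 CPM (counts scaled to library size with TMM factors) in shPHF19 libraries, against 168, 199 and 189 CPM in control libraries. Each of the 6 markers listed for the line (CD34, KIT, MPO, CD33, ANPEP and RUNX1T1) was expressed, and 5 of them differed by edgeR. CD34 (log2 fold change 1.22), CD33 (1.04) and MPO (0.97) were higher and ANPEP (-0.64) and RUNX1T1 (-0.37) lower in shPHF19 cells, while KIT, at 3291 ± 272 CPM in shPHF19 and 2939 ± 176 CPM in control cells (SD, n = 3 each), did not pass. Most of the transcriptome differed. By edgeR (quasi-likelihood, Benjamini-Hochberg adjusted p under 0.05), 60.2% of the 13014 genes differed, 29.4% higher and 30.9% lower in shPHF19 cells. Over all genes the median log2 fold change stood at -0.03, and it moved to -0.14 with upper-quartile factors and to -0.24 with library totals only. With library totals only, 2590 genes were called higher and 5624 lower, in place of 3820 and 4015.

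Promoter windows, 250 bases before to 50 after the annotated start, were at hand in RefSeq (GRCh38.p14) for 9 of the 10 genes and not for OSCAR. They are shown for the pair of genes with the longest shared run of bases, for genes that differed most, and for a neighbour of TREML2. The first pair is the Fc receptor genes FCGR1A (chr1:149782444-149782743, plus strand) and FCGR2A (chr1:161505207-161505506, plus strand), with their longest shared run in capitals.
FCGR1A: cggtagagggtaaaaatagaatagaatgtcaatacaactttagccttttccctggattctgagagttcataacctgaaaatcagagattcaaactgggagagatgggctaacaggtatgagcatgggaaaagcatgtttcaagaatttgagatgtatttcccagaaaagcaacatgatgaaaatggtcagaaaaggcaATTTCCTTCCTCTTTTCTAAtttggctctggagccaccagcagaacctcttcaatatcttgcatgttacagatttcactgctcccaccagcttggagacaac
FCGR2A: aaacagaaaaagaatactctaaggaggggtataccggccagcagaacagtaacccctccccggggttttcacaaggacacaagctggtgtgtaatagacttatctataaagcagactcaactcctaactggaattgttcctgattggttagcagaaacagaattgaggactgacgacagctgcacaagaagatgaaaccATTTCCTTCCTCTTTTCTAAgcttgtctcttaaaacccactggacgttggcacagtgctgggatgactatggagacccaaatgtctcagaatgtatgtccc

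The shared run is 20 bases long and lies at positions -52 to -33 of FCGR1A and -51 to -32 of FCGR2A, counted from the annotated start. Among 36 pairs of these promoters it was the longest common run, and the next longest had 11 bases. Of 35116 promoter windows in the table it was found in 2, these 2. It holds the letters TTCCTC, the reverse complement of GAGGAA, which is the core of the motif bound by PU.1, a transcription factor of myeloid cells. GAGGAA was found on either strand in 27.9% of all windows.

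The second set is TREML2 (chr6:41201100-41201399, minus strand) and CD247 (chr1:167518480-167518779, minus strand), the genes with a promoter sequence that differed most in each direction, and TREM1 (chr6:41286633-41286932, minus strand), a neighbour of TREML2. Capitals mark the motifs searched on both strands: GAGGAA (PU.1), TGTGGT (RUNX), TGANTCA (AP-1) and TTGCNNAA (C/EBP).
TREML2: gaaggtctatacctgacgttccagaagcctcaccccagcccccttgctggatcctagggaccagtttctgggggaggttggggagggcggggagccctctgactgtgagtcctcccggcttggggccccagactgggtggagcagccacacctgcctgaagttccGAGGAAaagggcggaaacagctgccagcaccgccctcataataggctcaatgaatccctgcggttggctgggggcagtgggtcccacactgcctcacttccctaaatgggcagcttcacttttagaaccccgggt
TREM1: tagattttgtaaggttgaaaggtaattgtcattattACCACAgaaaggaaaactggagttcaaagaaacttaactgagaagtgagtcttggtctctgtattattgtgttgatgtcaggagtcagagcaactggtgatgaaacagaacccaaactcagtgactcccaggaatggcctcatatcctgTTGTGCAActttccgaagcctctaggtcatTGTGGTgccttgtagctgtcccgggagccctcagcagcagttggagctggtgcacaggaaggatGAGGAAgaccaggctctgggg
CD247: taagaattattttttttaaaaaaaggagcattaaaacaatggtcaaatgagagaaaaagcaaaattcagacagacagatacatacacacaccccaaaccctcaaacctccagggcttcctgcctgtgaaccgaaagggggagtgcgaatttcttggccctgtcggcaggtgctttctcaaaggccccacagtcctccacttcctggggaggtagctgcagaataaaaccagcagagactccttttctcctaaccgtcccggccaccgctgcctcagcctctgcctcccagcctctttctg

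TREML2 holds GAGGAA once, at position -85, and CD247 holds none of the 4 motifs in this window. TREM1 holds 2 copies of TGTGGT and 1 copy each of GAGGAA and TTGCNNAA. TGTGGT was found in 13.1% of all windows, TTGCNNAA in 10.5% and TGANTCA in 7.71%. The windows of 8 of the genes hold 1 (FCGR1A) to 9 (FCER1G) CpG dinucleotides, where the median of all windows is 14 and the lower quartile 4. SYK has 3 annotated starts with 19, 40 and 2 CpG. These are matches of letters and say nothing of binding in these cells.

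OSCAR (chromosome 19, 54094668 to 54102692, minus strand, GENCODE 29) differed most. It encodes the osteoclast-associated receptor, a collagen receptor of myeloid cells that signals through FCER1G. It had 70, 55 and 69 counts in shPHF19 libraries and 1024, 1121 and 993 counts in control libraries. The groups lay far apart and the control libraries were close to each other. In CPM the means were 4.50 ± 0.844 in shPHF19 and 64.5 ± 1.55 in control cells (SD, n = 3 each), 14.3-fold lower, with a log2 fold change of -3.84 (SE 0.140).

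FCGR1A (chromosome 1, 149782671 to 149792518, plus strand) encodes CD64, the high-affinity receptor for IgG, which pairs with FCER1G. Its level was 16.6, 18.2 and 15.7 CPM in shPHF19 libraries, against 51.2, 49.1 and 50.1 CPM in control libraries. The groups did not overlap, and the log2 fold change was -1.57 (SE 0.117). FCGR2A (chromosome 1, 161505430 to 161524013, plus strand) encodes CD32A, an IgG receptor that carries an ITAM in its own tail and needs no adaptor for it. Its level was 5.20, 6.61 and 4.68 CPM in shPHF19 libraries, against 17.6, 20.4 and 18.4 CPM in control libraries, a log2 fold change of -1.77 (SE 0.171). These are bulk samples, in which fewer cells expressing a gene and less RNA per cell cannot be told apart.

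Both Fc receptor genes have close copies with which reads can be shared, so the split of counts between copies is uncertain. FCGR1B (log2 fold change -2.52, SE 0.118; edgeR adjusted p = 2e-23) and FCGR1C (-2.70, SE 0.153; edgeR adjusted p = 3.28e-20), copies of FCGR1A, were lower too. FCGR1A held 48.8, 51.7 and 44.5% of the counts of the 3 copies in shPHF19 libraries, against 31.3, 31.2 and 33.1% in control libraries, so its share was higher in each shPHF19 library. Among the FCGR2 genes, the inhibitory receptor gene FCGR2B fell (-1.24, SE 0.208; edgeR adjusted p = 1.45e-06), as did FCGR2C (-1.87, SE 0.218; edgeR adjusted p = 3.81e-10). FCGR2A held 42.5 ± 2.06% of the counts of its trio in shPHF19 and 47.0 ± 1.52% in control libraries (SD, n = 3 each). FCGR3A, the gene of the IgG receptor CD16a, had 2 counts in the shPHF19 libraries together and 1 in the control libraries. An exon stretch of 177 bases of FCGR1A, 5.90% of its exons, overlaps HIST2H2BF on the opposite strand, which had 41 counts over all libraries.

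The TREM receptors lie together on chromosome 6. TREML2 (41190277 to 41201194, minus strand) encodes TLT-2, a receptor of the TREM family for which no ITAM adaptor is named here. It had 70, 60 and 59 counts in shPHF19 libraries and 931, 1106 and 901 counts in control libraries. The groups were well apart, at 4.38 ± 0.711 CPM in shPHF19 and 60.3 ± 4.28 CPM in control cells (SD, n = 3 each). That is 13.8-fold lower, a log2 fold change of -3.79 (SE 0.142), close to that of OSCAR.

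TREM1 (41267926 to 41286719, minus strand) encodes a receptor that amplifies inflammatory responses of neutrophils and monocytes through TYROBP. It had 14, 9 and 18 counts in shPHF19 libraries and 92, 100 and 66 counts in control libraries. The groups did not overlap, and the log2 fold change was -2.47 (SE 0.328). TREM2 (41158506 to 41163186, minus strand), a lipid-sensing receptor of macrophages and microglia that also uses TYROBP, had 13, 25 and 24 counts in shPHF19 libraries and 11, 24 and 18 counts in control libraries. Here the groups overlapped, and at this depth the log2 fold change of 0.38 (SE 0.443) is no larger than its error.

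Between TREML2 and TREM1 the pseudogene TREML3P fell (log2 fold change -1.79, SE 0.438; edgeR adjusted p = 0.000464). TREML1, which encodes a platelet receptor, had 10 counts in shPHF19 and 27 counts in control libraries together and did not pass the filter. TREML4 had 0 counts in shPHF19 and 8 in control libraries, TREML5P had none, and NCR2, a natural killer cell receptor gene, had 4 in shPHF19 and 0 in control libraries. Of the genes of the cluster with enough counts, then, TREML2, TREML3P and TREM1 were lower in shPHF19 cells and TREM2 was not distinguishable between the groups.

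**Figure D1:**
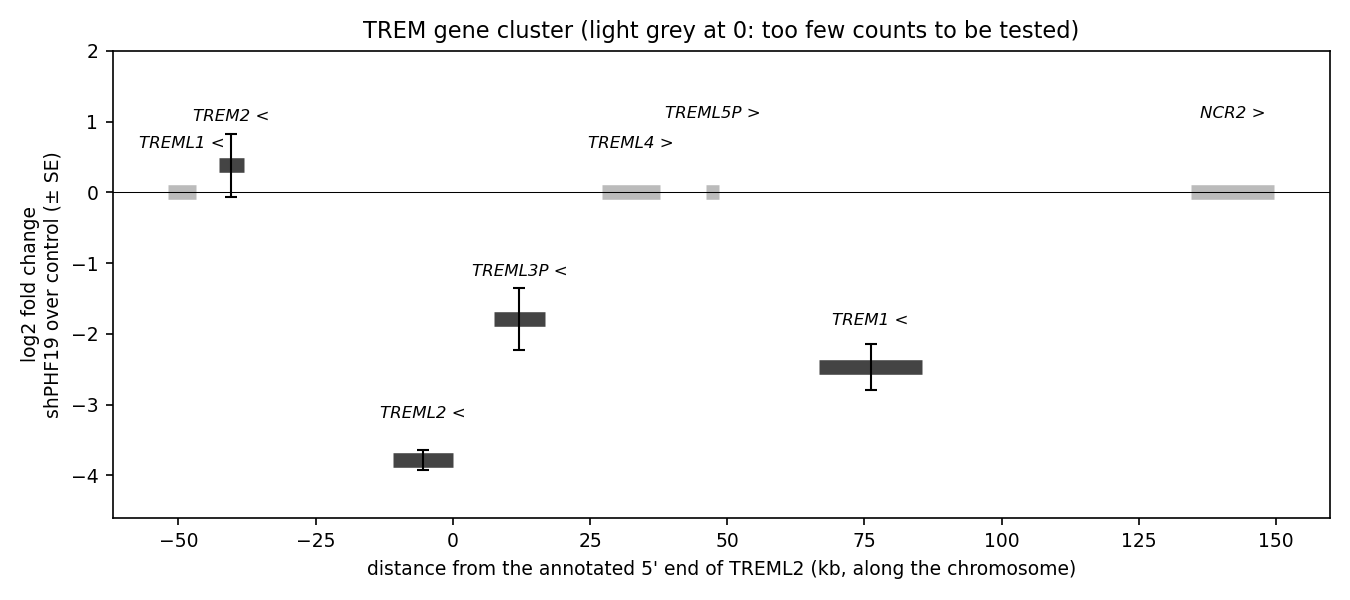
The TREM gene cluster, with distance from the annotated start of TREML2 in kb on the x axis and the log2 fold change (shPHF19 over control, bars ± SE) on the y axis. The signs < and > give the strand. TREML2 (-3.79), TREM1 (-2.47) and TREML3P (-1.79) lie below 0, TREM2 (0.38) has an error bar that spans 0, and genes in light grey at 0 had too few counts for a value.

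Among the adaptors, FCER1G (chromosome 1, 161215234 to 161220699, plus strand), the partner of OSCAR and FCGR1A, had 15, 13 and 9 counts in shPHF19 libraries and 60, 27 and 58 counts in control libraries. The groups did not overlap, and control replicate 2 was low within its group. The log2 fold change was -1.80 (SE 0.413), and -2.10 without that library. TYROBP (chromosome 19, 35904401 to 35908295, minus strand), the partner of TREM1 and TREM2, had 21, 7 and 18 counts in shPHF19 libraries and 52, 91 and 69 counts in control libraries. The groups again did not overlap, and the log2 fold change was -2.02 (SE 0.356).

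CD247 (chromosome 1, 167430640 to 167518610, minus strand) encodes the zeta chain of the T cell receptor complex, which in natural killer cells also serves Fc and natural cytotoxicity receptors. It had 263, 312 and 269 counts in shPHF19 libraries and 55, 55 and 51 counts in control libraries. It was the single gene of the 10 that was clearly higher, at 19.4 ± 0.853 CPM in shPHF19 and 3.31 ± 0.0704 CPM in control cells (SD, n = 3 each). That is 5.87-fold higher, a log2 fold change of 2.55 (SE 0.178).

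Per length of exon, the 3 adaptors together came to 6.90 ± 0.714 RPKM (CPM per kb of annotated exon) in shPHF19 and 8.74 ± 0.798 RPKM in control cells (SD, n = 3 each). On this scale their balance differed more than their sum. CD247 made up 62.7, 78.5 and 69.6% of this sum in shPHF19 libraries, against 10.2, 9.60 and 8.49% in control libraries. TYROBP made up 22.3, 7.83 and 20.7% in shPHF19 libraries, against 43.0, 70.7 and 51.1% in control libraries. The remaining share, that of FCER1G, was 12.8 ± 2.73% in shPHF19 and 35.6 ± 14.1% in control libraries (SD, n = 3 each). Per length, CD247 was thus the largest of the 3 in each shPHF19 library and the smallest in each control library. In counts without length, CD247 made up 32.9, 31.8 and 28.7% in control libraries and was the smallest only in control replicate 3. On that scale the sum was higher in shPHF19 cells, since CD247 stood at 19.4 CPM in shPHF19 and 3.31 CPM in control cells. TYROBP (1.08 and 4.34 CPM) and FCER1G (0.859 and 3.01 CPM) differed by fewer CPM.

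**Figure D2:**
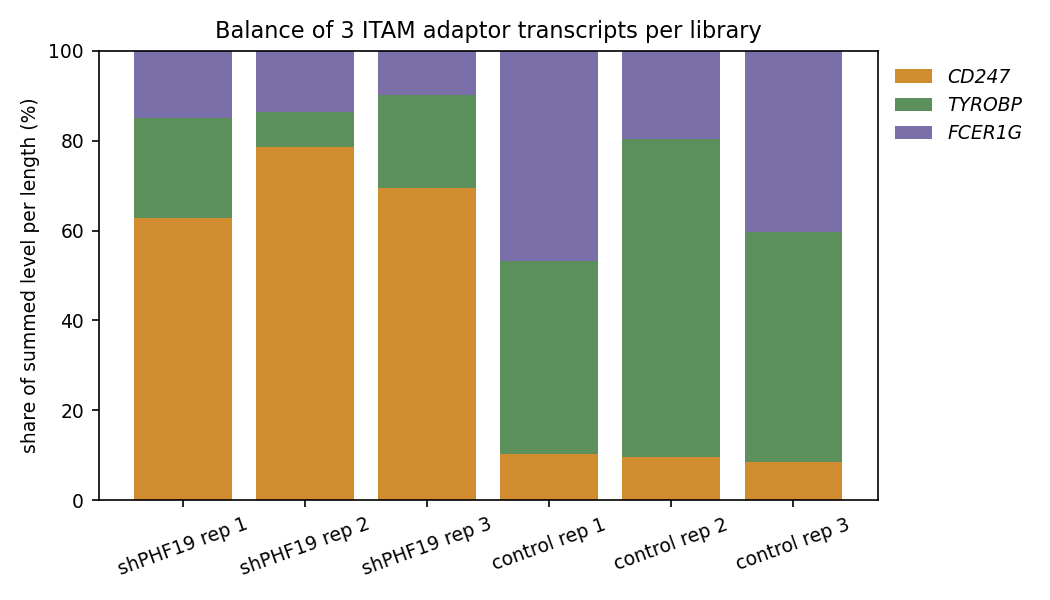
Share (%) of CD247, TYROBP and FCER1G in their summed level per length, as 1 stacked bar per library. CD247 takes 62.7 to 78.5% of each shPHF19 bar and 8.49 to 10.2% of each control bar.

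OSCAR and FCGR1A, which use FCER1G, together exceeded that adaptor per length in every library. OSCAR and FCGR1A together stood at 6.96, 8.91 and 11.7 times the RPKM of FCER1G in shPHF19 libraries and at 12.4, 29.1 and 12.2 times in control libraries. The control value of 29.1 belongs to control replicate 2, in which FCER1G was low. Every shPHF19 ratio of this pair was below every control ratio, though the highest shPHF19 ratio came close to the lowest control ratio. Other receptors that use FCER1G, such as CLEC4D and FCAR named below, are not in it. LILRA2, a receptor gene of the wider list below, was also left out, at 25.4 RPKM in shPHF19 and 26.9 RPKM in control cells. The ratio therefore does not describe the receptors of FCER1G as a class.

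SYK (chromosome 9, 90801787 to 90898549, plus strand), the kinase that binds phosphorylated ITAMs, was close to level. It had 164, 151 and 145 CPM in shPHF19 libraries and 124, 143 and 142 CPM in control libraries. The lowest shPHF19 library lay just above the highest control library. The log2 fold change was 0.17 (SE 0.0862), and it changed sign, to -0.04, with library totals only.

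Counted over the set, 8 of the 10 genes were past an adjusted p of 0.05 in the fit over all genes, 1 higher and 7 lower, where the background is 60.2% of genes tested. Each of these 8 differed at least 2-fold, a size that 5.72% of all genes passed as higher and 10.9% as lower. The groups did not overlap for 9 of the 10, where the background is 63.5%. SYK and CD247 were higher (30.9% of all genes) and 7 genes lower (32.6% of all genes). The median log2 fold change of the 10 was -1.79, beside -0.03 for all genes. Nothing is read from these counts, since the set was chosen on this comparison.

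**Figure D3:**
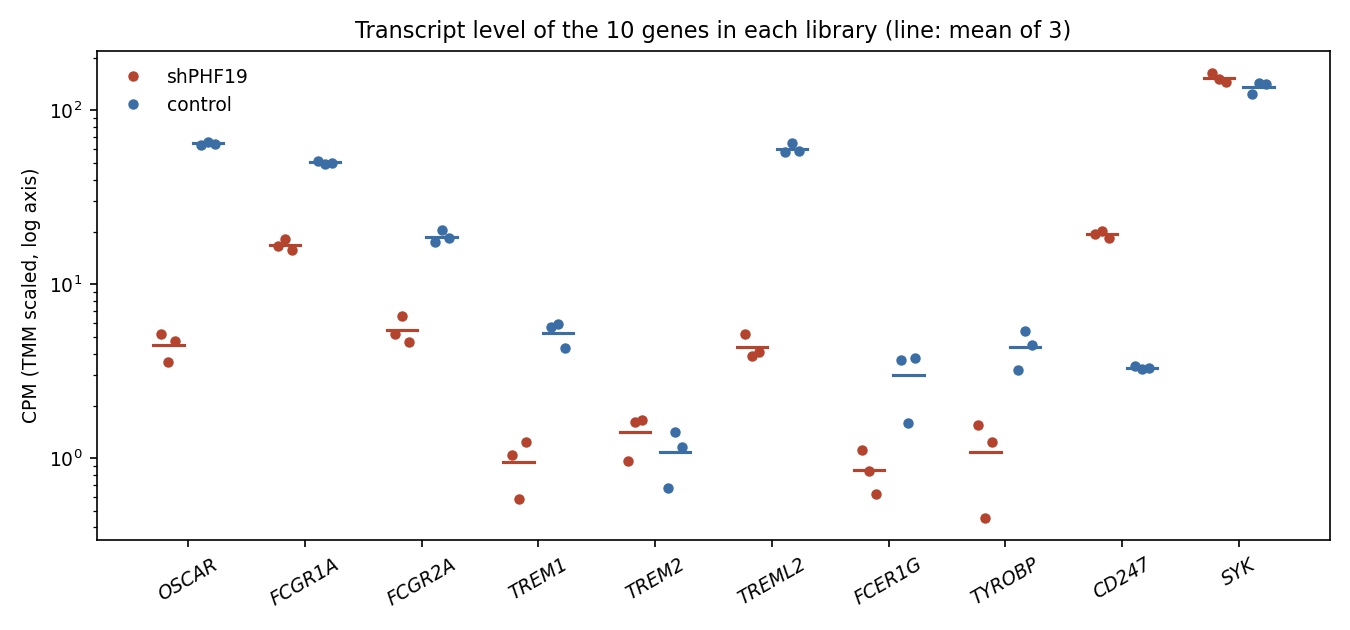
CPM (TMM scaled, log axis) of the 10 genes in each library, shPHF19 in red and control in blue, with a line at the mean of 3. OSCAR and TREML2 stand at 3.56 to 5.20 CPM in shPHF19 and at 57.2 to 66.1 CPM in control libraries, CD247 lies the other way round, the SYK groups lie close without overlap, and the TREM2 groups overlap.

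**Figure D4:**
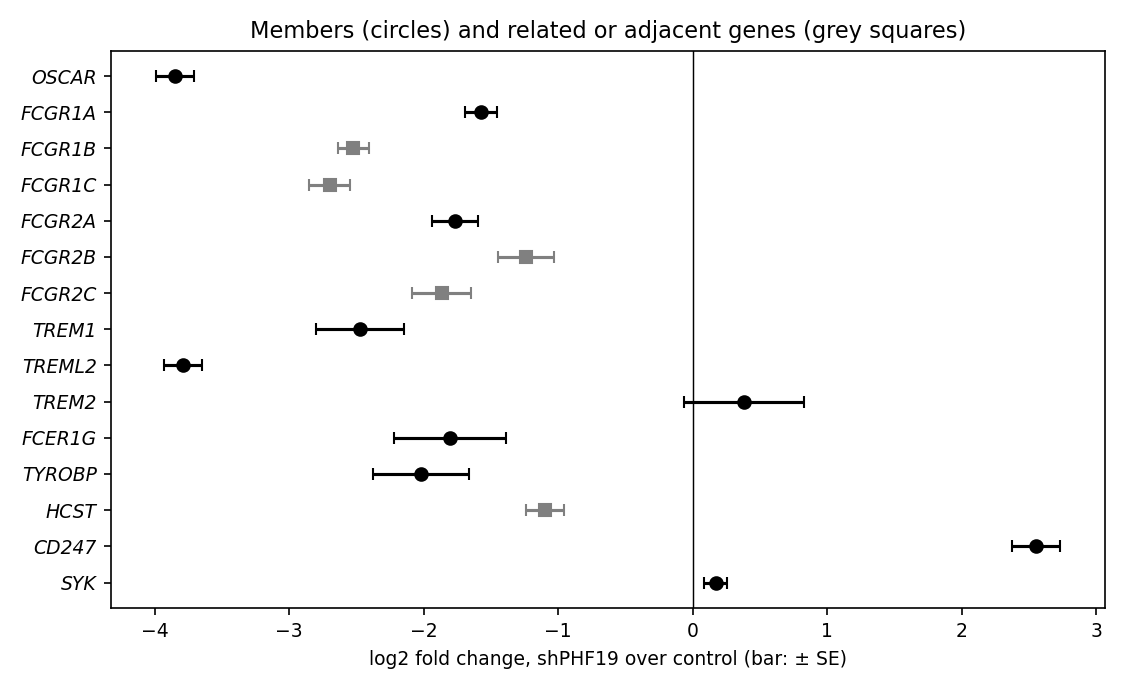
Log2 fold change (shPHF19 over control, bars ± SE) of the 10 genes, as circles, and of copies of the Fc receptor genes and HCST, as grey squares. CD247 (2.55) lies to the right, SYK (0.17) and TREM2 (0.38) lie near 0, and the other genes lie between -1.10 (HCST) and -3.84 (OSCAR).

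The order of the levels per length differed between the groups. In shPHF19 cells SYK came first at 29.4 ± 1.86 RPKM, followed by FCGR1A at 5.62 ± 0.423, CD247 at 4.81 ± 0.211 and OSCAR at 2.16 ± 0.405 RPKM (SD, n = 3 each), and neighbours among these did not overlap. TREML2 (1.33 RPKM), TREM2 (1.29), TYROBP (1.20), FCGR2A (1.03) and FCER1G (0.891) followed, each overlapping the next, and TREM1 came last at 0.220 RPKM. In control cells OSCAR was first at 30.9 ± 0.744 RPKM, above SYK at 26.2 ± 2.06, TREML2 at 18.3 ± 1.30 and FCGR1A at 16.7 ± 0.355 RPKM (SD, n = 3 each), without overlap between neighbours. TYROBP (4.79 RPKM), FCGR2A (3.54) and FCER1G (3.13) overlapped their neighbours, as did TREM1 (1.22), TREM2 (0.992) and CD247 (0.821). OSCAR thus ranked 4 in shPHF19 and 1 in control cells, and CD247 ranked 3 in shPHF19 and 10 in control cells.

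The authors' deposited table of changed genes holds 8 of the 10, without SYK and TREM2. The log2 fold changes in the authors' deposited table differ from those given here by at most 0.27, for FCER1G (-1.53 in that table). DESeq2 as run here gave -1.79 for FCER1G, so the deposited values may be a different measure of fold change.

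Genes of most similar pattern were sought among 10070 genes averaging 5 CPM or more, by the root mean square difference of centred log2 CPM over the 6 libraries. Closest to CD247 were BPI (0.0516) and AZU1 (0.0970), which encode antimicrobial proteins of neutrophil granules, and EGFL7 (0.117), a secreted protein gene. BPI stood at 49.0 ± 0.906 CPM in shPHF19 and 8.51 ± 0.356 CPM in control cells (SD, n = 3 each). Closest to OSCAR were P2RX7 (0.161), an ATP-gated channel gene, the integrin gene ITGAL (0.199) and SETBP1 (0.224). P2RX7 (0.141) and ITGAL (0.170) were also closest to TREML2, with CCPG1 (0.233), a gene of autophagy of the endoplasmic reticulum, after them. OSCAR and TREML2 differed from each other by 0.112, less than from any of these. Both were chosen as lower in this comparison, so nothing is read from their closeness.

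Other genes of the pathway were taken from lists. The list of other ITAM and hemITAM receptors and adaptors, drawn broadly, has 50 genes, of which 4 had no count and 25 more did not pass the filter. Some genes in it, among them HCST, MSR1 and CLEC2B, have no established ITAM or ITAM adaptor. Among the 21 tested, 9 fell, 4 rose and 8 did not pass (61.9% called, beside 60.2% of all genes), and the median log2 fold change was -0.21. HCST, which encodes the adaptor DAP10, fell to 12.9 ± 2.26 CPM in shPHF19, against 27.6 ± 1.17 CPM in control cells (SD, n = 3 each; -1.10, SE 0.141; edgeR adjusted p = 4.54e-09). SIRPB2, a member of the signal-regulatory protein family, also fell (-2.03, SE 0.275; edgeR adjusted p = 1.5e-08). CLEC5A, a C-type lectin receptor that pairs with TYROBP, was the most abundant of those named and fell less, to 217 ± 19.1 CPM in shPHF19, against 301 ± 25.7 CPM in control cells (SD, n = 3 each; -0.48).

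Of the 4 genes that rose, FCAR and CD79B are named after their values were seen. CLEC4D, a C-type lectin receptor that signals through FCER1G, stood at 5.61 ± 2.75 CPM in shPHF19 and 1.61 ± 0.638 CPM in control cells (SD, n = 3 each; log2 fold change 1.80, SE 0.321; edgeR adjusted p = 4.56e-06). FCAR, the gene of an IgA receptor that also uses FCER1G, had a log2 fold change of 1.33, and CD79B, of the B cell receptor complex, of 0.32. The call of CD79B was lost with upper-quartile factors (0.21), with library totals only (0.11), without shPHF19 replicate 1 (0.24) and without control replicate 1 (0.28). CD3D, a T cell receptor subunit gene, stood at 48.8 ± 1.97 CPM in shPHF19 and 33.2 ± 2.75 CPM in control cells (SD, n = 3 each; 0.55).

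The list of proximal kinases, adaptors and effectors has 51 genes, of which 43 were tested. There, 18 fell, 9 rose and 16 missed the threshold (62.8% called, beside 60.2% of all genes), and the median log2 fold change was -0.15. With library totals only 25 fell and 6 rose, and with upper-quartile factors 22 fell and 6 rose. GAB2, a docking protein, fell to 84.2 ± 5.32 CPM in shPHF19, against 390 ± 29.5 CPM in control cells (SD, n = 3 each; -2.21, SE 0.0880; edgeR adjusted p = 4.49e-26). FYN, a kinase of the SRC family, fell to 27.6 ± 2.29 CPM in shPHF19, against 98.7 ± 2.95 CPM in control cells (SD, n = 3 each; -1.84). The protein kinase C genes PRKCD (-1.58) and PRKCB (-0.98) fell, as did NFATC1 (-0.90), a transcription factor of osteoclast formation downstream of these receptors. DOK3, an adaptor that dampens signalling, rose to 186 ± 11.1 CPM in shPHF19, against 85.0 ± 6.01 CPM in control cells (SD, n = 3 each; 1.13, SE 0.0873; edgeR adjusted p = 1.36e-15).

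The enzymes LYN, BTK and PLCG2, named here for their role after their values were seen, did not pass. Other enzymes of the list did pass. Among them were the kinase genes FGR (-1.94) and PIK3CB (-0.43), lower, and PIK3CD (0.68), PIK3CG (0.55) and TEC (0.29), higher. These too are named after their values were seen. LYN, the main SRC family kinase of myeloid cells, stood at 94.2 ± 5.08 CPM in shPHF19 and 108 ± 4.57 CPM in control cells (SD, n = 3 each; -0.19, SE 0.0881; edgeR adjusted p = 0.0554). LYN was called lower with upper-quartile factors (-0.30), library totals only (-0.40), a filter at 1 CPM in 3 libraries (-0.20) and without shPHF19 replicate 3 (-0.23). The kinase gene BTK had a log2 fold change of 0.13, which changed sign with library totals only (-0.07). The phospholipase gene PLCG2 had one of -0.10 and was called lower with upper-quartile factors (-0.21) and library totals only (-0.31). ZAP70, the T cell relative of SYK, had 6 counts in shPHF19 and 15 counts in control libraries together, and LCK, its upstream kinase, had 1 count in shPHF19 and 0 in control libraries.

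The list of inhibitory receptors and phosphatases, with other regulators of ITAM signals, has 36 genes, of which 32 were tested. Not every gene in it only counters these signals. Here 18 fell, 4 rose and 10 missed the threshold (68.8% called, beside 60.2% of all genes), and the median log2 fold change was -0.52. Over all genes 29.4% were higher and 30.9% lower. SIRPA, the receptor for CD47, fell to 19.7 ± 3.99 CPM in shPHF19, against 71.8 ± 2.03 CPM in control cells (SD, n = 3 each; -1.87, SE 0.118; edgeR adjusted p = 1.32e-18). PTPRC (CD45), a receptor phosphatase that sets the activity of SRC family kinases, fell to 98.2 ± 10.6 CPM in shPHF19, against 256 ± 30.4 CPM in control cells (SD, n = 3 each; -1.38). PTPRJ (CD148, -1.57), the kinase-anchoring adaptor PAG1 (-3.11) and TNFAIP3 (-3.04), an ubiquitin-editing enzyme, fell as well. CD33, a sialic acid-binding inhibitory receptor, rose to 82.2 ± 3.20 CPM in shPHF19, against 39.9 ± 3.40 CPM in control cells (SD, n = 3 each; 1.04, SE 0.0998; edgeR adjusted p = 1.2e-12). The other genes that rose, named after their values were seen, were the phosphatase genes PTPN11 (SHP2, 0.45) and INPP5D (SHIP1, 0.35) and the receptor gene CD300A (0.23). INPP5D lost its call with library totals only (0.14). CD300A lost it in 6 of 13 alternatives, among them library totals only (0.03), the replicate block (0.23) and leaving out shPHF19 replicate 1 (0.18), shPHF19 replicate 2 (0.23) or control replicate 3 (0.18).

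**Figure D5:**
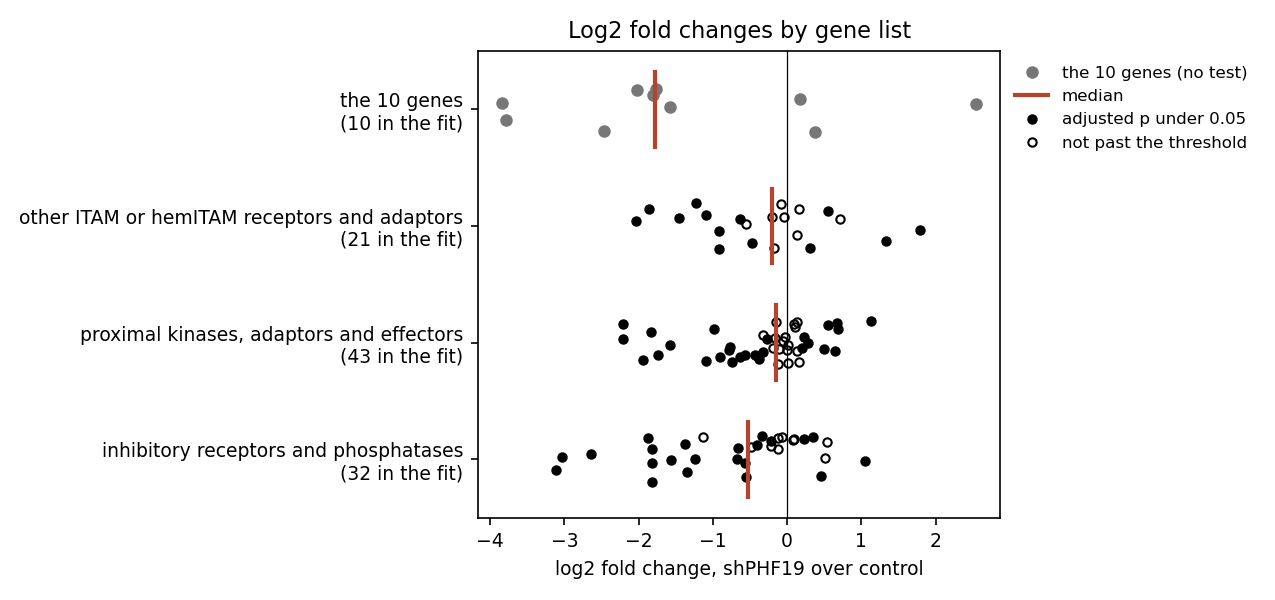
Log2 fold changes (shPHF19 over control, x axis) of the 10 genes, in grey and without a test, and of the tested genes of 3 lists, filled where the edgeR adjusted p is under 0.05 and open otherwise. Red lines mark medians, at -1.79, -0.21, -0.15 and -0.52 from top to bottom.

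Markers of other cell types were read beside these genes. Of 23 listed T and natural killer cell markers, 20 were in the table, 3 of these (CD8B, KLRD1 and NCAM1) had no count, and 4 were tested. CD3D, which is also in the list of ITAM genes, rose, while CD3E (-0.91), CD8A (-0.96) and NKG7 (-1.37) fell. All 4 tested were thus called, where 60.2% of all genes were. The call of CD3E was lost with DESeq2 (-0.89) and without shPHF19 replicate 2 (-0.82), shPHF19 replicate 3 (-0.77), control replicate 1 (-0.80) or control replicate 3 (-0.83). The summed level of the list was 55.0 to 59.3 CPM in shPHF19 and 50.3 to 59.0 CPM in control libraries, and CD3D made up most of it. The part of these markers in the CD247 values was not tested. CD3G, a further subunit of the complex that CD247 belongs to, had 4 counts in shPHF19 and 1 count in control libraries together, and the T cell marker CD28 had 0 in shPHF19 and 8 in control libraries.

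Monocyte and macrophage markers differed in both directions. Of 17 listed, 9 were tested, 4 fell, 2 rose (FCN1 and VSIG4) and 3 did not pass (66.7% called, beside 60.2% of all genes), and the median log2 fold change was -0.26. The summed level was 160 to 181 CPM in shPHF19 and 229.6 to 244 CPM in control libraries. ITGAM (-3.17), ITGAX (-2.53), CD68 (-1.63) and LYZ (-1.53) fell. The genes that rose, named after their values were seen, were VSIG4, at 121 ± 8.49 CPM in shPHF19 and 87.4 ± 1.16 CPM in control cells (SD, n = 3 each; 0.47), and FCN1, with 43 counts in shPHF19 and 1 count in control libraries together. The defining marker CD14 had 3 counts in shPHF19 and 4 counts in control libraries together. The part of these markers in the receptor values was not tested. Of 10 osteoclast markers 3 were tested and 2 fell, CTSK (-1.06) and SIGLEC15 (-1.46), and CALCR and OCSTAMP had no count. Of 10 mast cell and basophil markers 2 were tested and 1 fell (HDC, -1.62), and of 10 B cell markers 5 were tested, with CD79B higher and PAX5 (-0.31) and FCRLA (-3.22) lower. With so few tested, these counts say little beside the 60.2% called over all genes, 29.4% higher and 30.9% lower. Leaving out a library ended the call of SIGLEC15 (-1.10 without control replicate 1), of HDC (-1.16 without shPHF19 replicate 3, -1.39 without control replicate 2) and of PAX5 (-0.27 without shPHF19 replicate 2, -0.25 without control replicate 3). Of 14 megakaryocyte and erythroid markers 4 were tested, and the summed level was 13.9 to 18.6 CPM in shPHF19 and 14.3 to 19.8 CPM in control libraries.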

How the data were processed

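The submitters' processing notes name the build hg38 and the tools HTSeq 0.11.2 and HISAT2 2.1.0. For annotation and strand setting, the sources used here give nothing. The authors deposited whole-number counts per gene symbol, not normalized (26410 rows, 6991 without a count). In 28 rows the gene name had been turned into a date, and these were kept. The authors also deposited their own comparison, with a mean normalized signal (baseMean), log2 fold changes and p-values. It holds 5740 genes with adjusted p up to 0.00993, and none above.

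Counts were tested with edgeR 4.0.16 (R 4.3.3; filterByExpr, TMM, glmQLFit and glmQLFTest, robust, group as the only term), adjusted by Benjamini-Hochberg over 13014 genes with a threshold of 0.05. SE is the log2 fold change divided by the square root of F. Exon lengths and positions are from GENCODE 29 (GRCh38).

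The members and lists were chosen with earlier results of these data known. The text names the 10 genes, PHF19, Fc receptor copies, the 6 genes of smallest adjusted p in each pathway list, the 3 genes of most similar pattern, and called markers (at most 4 a list by smallest adjusted p). Neighbouring genes are named by position. Alternatives were other scalings, filters, DESeq2 1.42.0, a replicate block and leaving out each library. A count of 0 allows up to 3 counts, which is 0.181 to 0.211 CPM by library. These limits cover counting error only. Chi-square over degrees of freedom between replicates of a group was 4.78 to 12.4, above sampling noise.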

Additional observations from a re-analysis of the deposited data

How the results depend on the processing

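Over 13 alternatives, the log2 fold changes of OSCAR (-4.05 to -3.69), TREML2 (-3.99 to -3.70), TREM1 (-2.71 to -2.20), FCGR2A (-1.97 to -1.66), FCGR1A (-1.78 to -1.52), FCER1G (-2.10 to -1.61), TYROBP (-2.36 to -1.63), CD247 (2.34 to 2.59) and TREM2 (0.13 to 0.64) kept their sign. SYK ran from -0.04 (library totals only) to 0.22. The numbers of genes called, over all genes and in the 3 pathway lists, stayed within 1.5 times in every alternative, and each of the 18 pathway genes named by smallest adjusted p was called in all of them. The difference in the CD247 share of the adaptors was 60.8 percentage points, 59.8 without scaling by length and 56.7 to 64.6 with a library left out. Same-numbered replicates did not deviate together (correlations -0.164 to -0.00655). This check would miss weak pairing, so it cannot tell whether same-numbered samples were handled together. With a replicate block 7307 genes were called, in place of 7835. The lists of receptors, of kinases, and of inhibitory receptors and phosphatases had 13, 24 and 20 called, in place of 13, 27 and 22. Depth limits TREM2, TREM1, FCER1G and TYROBP, each with at most 100 counts in any library.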

Other observations

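Within 100 kb, 39 other genes were tested, of which 14 were higher, 9 lower and 16 not called (edgeR quasi-likelihood test, adjusted over all genes). Over all genes tested 60.2% were called, 29.4% higher and 30.9% lower. OSCAR and NDUFA3, a subunit gene of respiratory complex I, lie head to head with annotated starts 36 bases apart, and they differed in opposite directions. NDUFA3 had 1911 counts in shPHF19 and 976 counts in control libraries together (log2 fold change 1.14, SE 0.122; edgeR adjusted p = 3.01e-11), beside 194 counts in shPHF19 and 3138 in control libraries for OSCAR. TYROBP and HCST, both adaptor genes, lie tail to tail with 24 bases between them, and both were lower in shPHF19 cells. These neighbours are named by position, after their values were seen.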
